A study of Homo sapiens with 91 samples.

Results

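Chaperones fold other proteins and hold damaged ones in solution, and the 40 genes described here encode human heat shock proteins, their cochaperones and the transcription factors that control them. They were chosen by gene name from the 62710 genes of each deposited table, and comprise 6 cytosolic HSP70 and HSP110 proteins, 7 cytosolic J-domain proteins, 4 HSP90 proteins and cochaperones, 2 genes with small heat shock protein names, 3 BAG proteins, 5 chaperones of the endoplasmic reticulum (ER), 4 mitochondrial chaperones, 7 subunits of the cytosolic chaperonin CCT and 2 heat shock factors. 39 were matched by current gene symbol, and HSPB11 by its GENCODE release 29 symbol.

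The study sequenced RNA of 3 human tumor lines in 91 libraries: 35 of MOLT4, from an acute lymphoblastic leukemia, 32 of PSN1, from a pancreatic adenocarcinoma, and 24 of RH4, from a rhabdomyosarcoma. Cells received the CDK9 degrader KI-CDK9d-32, the CDK9 inhibitor KB-0742 or DMSO vehicle. Libraries were made at 2, 4 and 8 h from MOLT4 and PSN1 and at 4 and 8 h from RH4, with no KB-0742 group at 2 h in PSN1. Each of the 23 groups had n = 4 except MOLT4 vehicle at 4 h (n = 3). The labels give no doses, each tumor type is represented by 1 line, and the design text names RH1 where all labels name RH4.

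The libraries held 1598283 to 3240753 gene counts each, and equal amounts of spike-in RNA took 7.5% to 61.5% of all counts. By group median, the spike-in share was highest in MOLT4 cells after 8 h of KI-CDK9d-32, at 35.1% (28.2% to 61.5%). The vehicle median at that time was 15.3% (11.7% to 15.8%). The 61.5% belonged to replicate 3. Replicate 3 was also the highest library of each MOLT4 group at 4 h, with 49.4% for the inhibitor, 39.5% for the degrader and 21.2% for vehicle. Of 6 marker genes of each tumor type, 6 in MOLT4, 5 in PSN1 (CDH1 lay below 1 TPM) and 6 in RH4 had a median of at least 1 TPM in their own line, and 0 of 6 did in each other line. The labels speak of biological replicates and do not mention separate cultures. P-values therefore reflect only how far these libraries vary.

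Changes are log2 fold changes ± standard error from edgeR's quasi-likelihood test on counts with TMM scaling, fitted to all genes of a line. A gene is called at a Benjamini-Hochberg adjusted p below 0.05 over all tested genes. Levels in single libraries are TMM-scaled CPM (counts scaled to a common library size), and levels of different genes are compared in TPM, a share of all transcripts that accounts for length. TMM scaling sets each gene against the rest of its library. Scaling by the spike-in RNA shifted the median of all genes by -2.81 (log2, spike-in minus TMM) in MOLT4 for KI-CDK9d-32 against vehicle at 8 h. The shift was -0.96 in PSN1 and -0.88 in RH4. For KB-0742 it was -1.31 in MOLT4, -0.89 in PSN1 and -1.57 in RH4. At 2 and 4 h the shifts against vehicle lay between -1.34 and -0.29. Fewer cells and less RNA per cell cannot be told apart in these bulk lysates. Under spike-in scaling 0 members were called higher in 14 of the 15 comparisons with vehicle, and 1 (DNAJC2 in PSN1 with KB-0742 at 8 h) in the other. None of the members' other rises over vehicle below was thus called with spike-in scaling.

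HSP70 proteins bind unfolded stretches of client proteins in a cycle driven by ATP; J-domain proteins deliver clients and start hydrolysis, and HSP110 and BAG proteins release the nucleotide. HSP90 acts later on kinases and other signaling clients, CCT folds actin and tubulin inside a closed ring, and related machines serve mitochondria and the ER. HSF1 drives many of these genes in stressed cells by binding inverted repeats of the letters GAA, while the unfolded protein response acts on ER chaperone genes through a separate element. CDK9 phosphorylates RNA polymerase II and its regulators so that paused polymerases elongate, and heat shock genes are classic examples of genes regulated at that pause.

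Because several results turn on genes of the heat shock factor and unfolded protein response programs, promoter stretches with the matching words are shown for the members those results name. They were read from RefSeq promoter windows (GRCh38.p14), with matched words in capitals and printed 5′ to 3′ on the strand of the gene. The words searched on both strands, in windows of 250 bases before the start, were a 3-unit word GAANNTTCNNGAA, the 2-unit words GAANNTTC and TTCNNGAA that lie inside it, and the ER stress element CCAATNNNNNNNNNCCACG.
HSPA8 (chr11:123062346-123062375, minus strand): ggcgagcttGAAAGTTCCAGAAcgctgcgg
HSPA8 (chr11:123062170-123062199, minus strand): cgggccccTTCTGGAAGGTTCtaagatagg
HSP90AA1 (chr14:102087105-102087134, minus strand): tcTTCCGGAAGGTTCgggaggcTTCTGGAA
HSP90AB1 (chr6:44247758-44247863, plus strand): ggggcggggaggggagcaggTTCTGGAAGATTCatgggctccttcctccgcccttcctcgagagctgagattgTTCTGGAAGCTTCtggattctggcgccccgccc
DNAJB6 (chr7:157336853-157336905, plus strand): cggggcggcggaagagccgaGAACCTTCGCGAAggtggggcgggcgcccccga
HSPD1 (chr2:197500061-197500090, minus strand): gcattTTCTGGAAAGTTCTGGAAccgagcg
DNAJB1 (chr19:14518421-14518494, minus strand): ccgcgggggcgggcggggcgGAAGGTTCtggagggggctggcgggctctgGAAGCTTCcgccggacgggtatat
HSPB1 (chr7:76302471-76302518, plus strand): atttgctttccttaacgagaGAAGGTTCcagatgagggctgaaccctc
HSPA5 (chr9:125241371-125241429, minus strand): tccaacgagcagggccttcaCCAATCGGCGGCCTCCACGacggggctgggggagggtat
HSP90B1 (chr12:103930210-103930239, plus strand): ccctgaCCAATCGGAAGGAGCCACGcttcg
HSP90B1 (chr12:103930315-103930344, plus strand): tgggtgCGTGGTGCGGCGCGATTGGtgggt

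Of 37 members with a promoter window, 5 (HSPA8, HSP90AA1, HSP90AB1, DNAJB6 and HSPD1) held the 3-unit word, 13.5%, against 152 of 27305 genes, 0.557%. A 2-unit word stood in 13 members, 35.1%, against 14% of all genes. The ER stress element was found in HSPA5 and HSP90B1, 5.41% of members, against 0.0916% of all genes. The 2-unit words of HSPA1A, HSPA1B, DNAJA1, DNAJB4, CCT2 and TCP1 are not printed. The element of HSP90B1 nearer the start lies on the opposite strand. A match is a string of letters and no measured binding site.

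In vehicle-treated cells 2 members stood highest per length in every line. HSPE1, the lid of the mitochondrial HSP60 chamber, was highest by median, with 1401 (1192 to 1742) TPM in MOLT4, 2206 (1947 to 2338) TPM in PSN1 and 1350.1 (1179.9 to 1552) TPM in RH4 (median, lowest and highest library). HSPA8, the constitutive cytosolic HSP70, was second, with 1213 (956 to 1473), 762 (569 to 895) and 679 (617 to 1008) TPM, and its range overlapped that of HSPE1 in MOLT4 and lay below it in PSN1 and RH4. HSP90AB1, the constitutive cytosolic HSP90, followed in MOLT4 at 623 (514 to 674) TPM and overlapped neither neighbor in that order. The stress-inducible HSPA1A was low, at 0.715 (0 to 1.93) TPM in MOLT4, 20.1 (7.04 to 29.8) TPM in PSN1 and 7.14 (2.41 to 8.80) TPM in RH4. HSPA1A and HSPA1B encode the same protein from near-identical copies, so the split of reads between them is uncertain.

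HSPB1, the small heat shock protein HSP27, took different places in the order of the lines, with 416 (374 to 487) TPM in RH4 (place 3), 191 (50.6 to 257) TPM in PSN1 and 32.6 (20.1 to 53.8) TPM in MOLT4, where it lay below all CCT members. These levels come from tables of separate lines, and the difference was not tested. At the low end lay DNAJB4, HSPA13, HSF2, DNAJB9, BAG5 and BAG3, with medians between 0.142 and 8.46 TPM over the 3 lines. BAG3 passed the filter on low counts in PSN1 and RH4 and not in MOLT4, so 39 members were tested in MOLT4 and 40 in the other lines. Most neighbors in the order overlapped in their ranges.

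**Figure D1:**
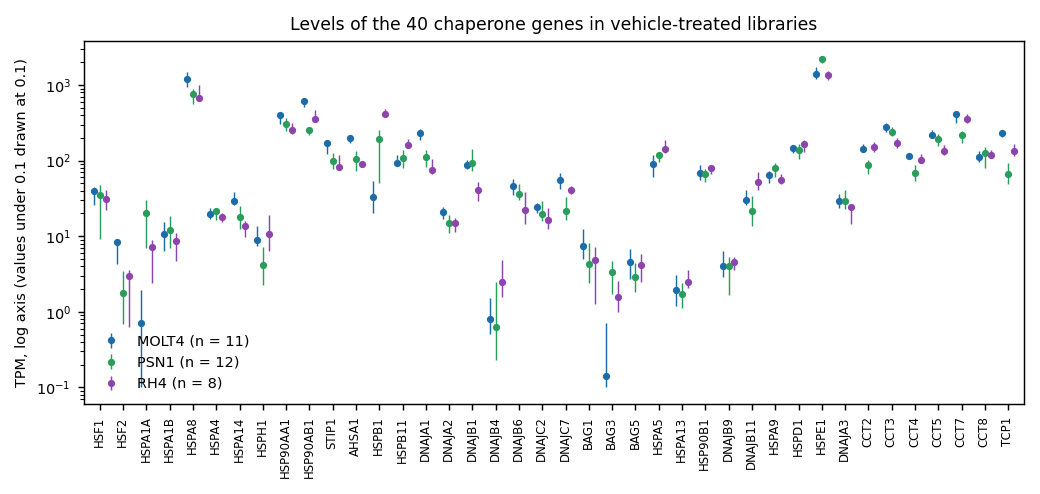
TPM (log axis) of the 40 genes in vehicle-treated libraries, with the median as a point and the lowest and highest library as bars, for MOLT4, PSN1 and RH4. HSPE1 and HSPA8 stand highest in every line, and HSPB1 is lowest in MOLT4 and highest in RH4.

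Both compounds moved chaperone transcripts in both directions relative to other genes, and MOLT4 was the line with the most calls for KI-CDK9d-32. In MOLT4 at 8 h KI-CDK9d-32 raised 7 and lowered 22 of 39 members, when 20.8% of all tested genes were called higher and 28.7% lower. With spike-in scaling the same comparison gave 0 up and 37 down, when 100 of all 11664 genes were called higher and 10609 lower. At 4 h it raised 4 and lowered 14 (13.6% and 18.9% of all genes; 0 up and 21 down with spike-in scaling). At 2 h it raised 3 and lowered 5 (4.56% and 5.41%; 0 up and 2 down), or 5 in all without vehicle replicate 4. Over all 11664 genes spike-in scaling gave 80 up and 4310 down at 4 h, and 20 up and 193 down at 2 h. With TMM scaling the share lowered at 8 h thus lay above that of all genes. The median member changed by -0.68 against -0.18 for all genes, a description of the list.

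KB-0742 in MOLT4 gave a more even split. It raised 11 and lowered 6 members at 2 h (13.2% and 12.9% of all genes; 0 up and 7 down with spike-in scaling). It raised 10 and lowered 11 at 4 h (18.1% and 17.7%; 0 up and 23 down), and raised 13 and lowered 11 at 8 h (23.4% and 25.8%; 0 up and 25 down). Over all 11664 genes spike-in scaling gave 14 up and 2282 down at 2 h. It gave 52 up and 5893 down at 4 h, and 71 up and 6332 down at 8 h.

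In PSN1 and RH4 KI-CDK9d-32 moved few members before 8 h. In PSN1 it raised 0 and lowered 1 at 2 h (0.128% and 0.345% of all genes). It raised 2 and lowered 2 at 4 h (3.62% and 3.74%), and raised 4 and lowered 5 at 8 h (11.0% and 9.60%). Spike-in scaling gave 0 up and 0 down at 2 h, 0 up and 5 down at 4 h, and 0 up and 29 down at 8 h. Over all 12471 genes the counts were 2 up and 13 down, 92 up and 1553 down, and 139 up and 6382 down. In RH4 KI-CDK9d-32 raised 0 and lowered 1 at 4 h (3.47% and 1.87%), and raised 5 and lowered 7 at 8 h (9.20% and 6.06%). Under spike-in scaling the split was 0 up and 0 down at 4 h, and 0 up and 30 down at 8 h. Over all 12058 genes it was 16 up and 89 down, and 89 up and 6222 down. The only call at 2 h in PSN1 was lost without vehicle replicate 3 or KI-CDK9d-32 replicate 3 or 4. At 4 h in PSN1 2 calls were left without KI-CDK9d-32 replicate 2, and at 8 h in RH4 7 without KI-CDK9d-32 replicate 1.

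KB-0742 moved more members in these 2 lines. In PSN1 it raised 11 and lowered 4 at 4 h (11.3% and 12.6% of all genes; 0 up and 14 down with spike-in scaling), although 8 calls in all were left without KB-0742 replicate 3 and 8 without vehicle replicate 4. It raised 9 and lowered 5 at 8 h (15.1% and 15.1%; 1 up and 19 down). Over all 12471 genes spike-in scaling gave 74 up and 5269 down at 4 h, and 150 up and 5834 down at 8 h. In RH4 KB-0742 raised 12 and lowered 5 at 4 h (15.4% and 16.2%; 0 up and 30 down), and raised 14 and lowered 11 at 8 h (22.5% and 23.0%; 0 up and 34 down). Over all 12058 genes spike-in scaling gave 61 up and 7458 down at 4 h, and 121 up and 9388 down at 8 h.

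**Figure D2:**
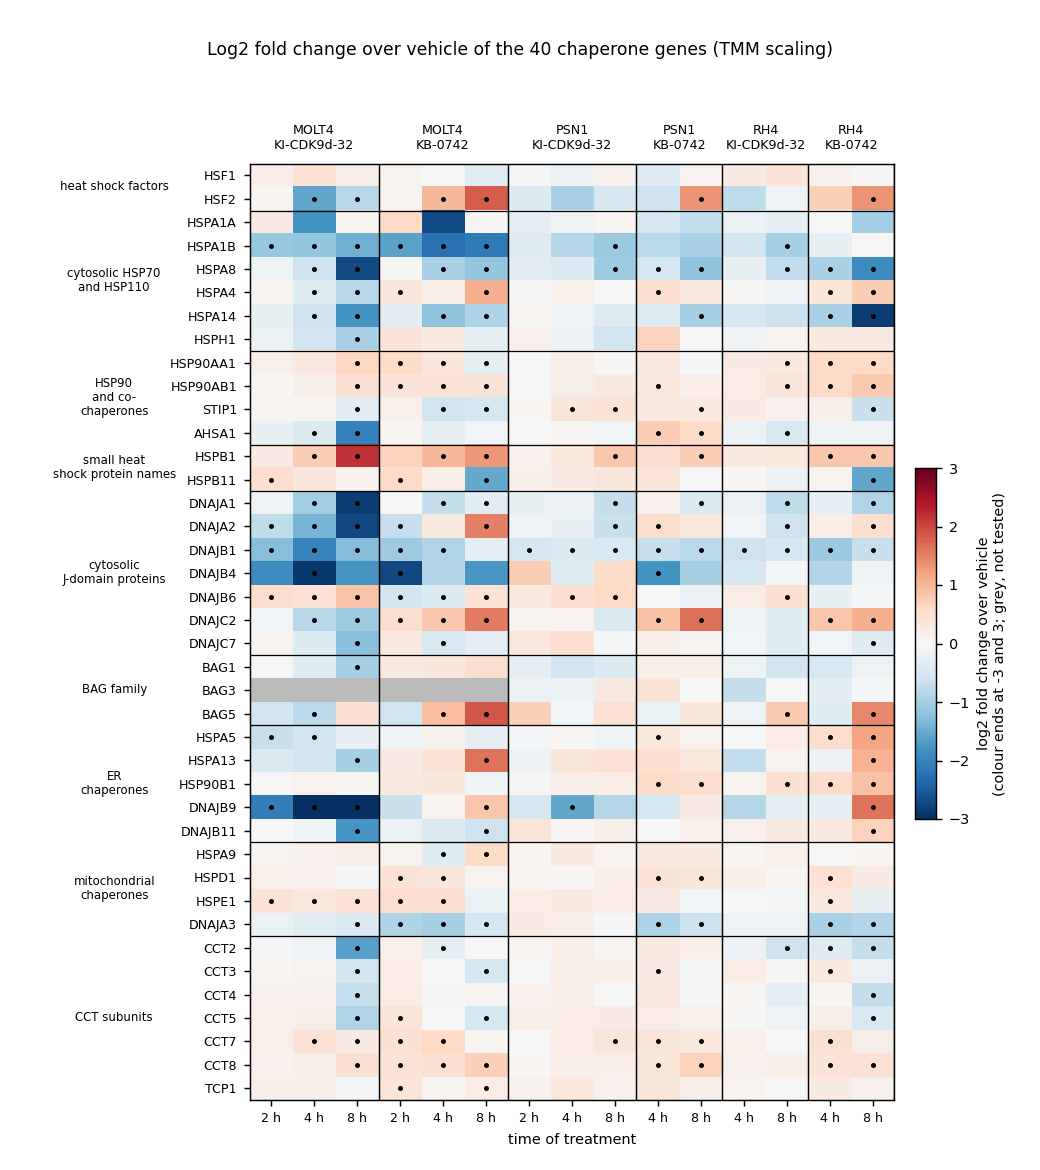
Log2 fold changes over vehicle (color, TMM scaling) of the 40 genes (rows, by class) in the 15 comparisons of a compound with vehicle (columns, by line, compound and time), with a black point where the gene was called and grey where it was not tested. DNAJB1 was called lower in 14 of 15 comparisons, and the row of DNAJB9 is darkest with KI-CDK9d-32 in MOLT4.

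The most abundant cytosolic HSP70, HSPA8, fell in all lines. It was called lower in 10 of 15 comparisons with vehicle and higher in 0, including both compounds in every line at 8 h. MOLT4 libraries at 8 h stood at 274, 345, 376 and 387 CPM with KI-CDK9d-32 and 872, 957, 957 and 1191 CPM with KB-0742, against 1850.3, 2228, 2364 and 2471 CPM with vehicle. The 3 groups did not overlap, with the degrader lowest (-2.69 ± 0.12, adjusted p = 9.05e-20) and the inhibitor between (-1.16 ± 0.12, adjusted p = 2.03e-10). In RH4 the order of the compounds was the other way round, with 736, 782, 867 and 990.0 CPM with KI-CDK9d-32 (-0.73 ± 0.12) and 323, 331, 369.5 and 461 CPM with KB-0742 (-1.92 ± 0.13), against 1244, 1294, 1454 and 1612 CPM with vehicle. In PSN1 its levels at 8 h were 771 ± 193 CPM with KI-CDK9d-32 and 698 ± 148 CPM with KB-0742, against 1622 ± 259.7 CPM with vehicle (SD, n = 4 each; -1.07 ± 0.15 and -1.22 ± 0.15). At 4 h HSPA8 was already lower with KI-CDK9d-32 in MOLT4 (-0.61 ± 0.12) and with KB-0742 in MOLT4 (-0.98 ± 0.12), PSN1 (-0.50 ± 0.14) and RH4 (-0.97 ± 0.12). At 2 h it was not called, with changes of -0.12 ± 0.11 and 0.036 ± 0.11 in MOLT4 and -0.32 ± 0.14 in PSN1. It was not called with KI-CDK9d-32 at 4 h in PSN1 (-0.44 ± 0.14) or RH4 (-0.21 ± 0.12).

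HSPA14, a divergent HSP70 that works at the ribosome with DNAJC2, was lowered by KB-0742 in every line at 8 h. In RH4 it had 1.65, 2.34, 2.75 and 4.43 CPM with KB-0742, against 16.8, 19.96, 21.9 and 24.6 CPM with vehicle, with no overlap (-2.85 ± 0.34, adjusted p = 5.22e-09). In MOLT4 its 8 h change was -1.79 ± 0.26 for the degrader and -0.93 ± 0.22 for the inhibitor, after -1.20 ± 0.24 with KB-0742 at 4 h. In PSN1 it was -0.9967 ± 0.22 with KB-0742 at 8 h, where the groups overlapped, and in RH4 -0.97 ± 0.27 at 4 h.

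HSPA4, an HSP110-type exchange factor, was lower with KI-CDK9d-32 (-0.83 ± 0.14) and higher with KB-0742 (1.09 ± 0.12, and -0.23 with spike-in scaling) in MOLT4 at 8 h, and rose with KB-0742 in RH4 (0.74 ± 0.13, and -0.84 with spike-in scaling). Its relative HSPH1 was called in 1 of 15 comparisons, MOLT4 with KI-CDK9d-32 at 8 h (-0.98 ± 0.26), and its other changes lay between -0.61 and 0.69.

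The inducible HSP70 copies were called higher in 0 comparisons. HSPA1B was lower with both compounds at all times in MOLT4, where at 8 h it had 0, 11.1, 12.1 and 14.7 CPM with KI-CDK9d-32 and 1.56, 4.92, 6.73 and 9.003 CPM with KB-0742, against 19.01, 21.4, 24.2 and 33.6 CPM with vehicle. The vehicle libraries lay above all treated ones (-1.43 ± 0.42 and -2.12 ± 0.42). The earlier changes with KB-0742 were -1.59 ± 0.38 at 2 h and -2.25 ± 0.49 at 4 h. Those with KI-CDK9d-32 were -1.14 ± 0.36 at 2 h (not called without KI-CDK9d-32 replicate 2, 3 or 4 or vehicle replicate 1, 2, 3 or 4, with adjusted p up to 0.109) and -1.16 ± 0.43 at 4 h (not called without KI-CDK9d-32 replicate 1, 2 or 3 or vehicle replicate 1 or 4, with adjusted p up to 0.104). Its calls with KI-CDK9d-32 at 8 h in PSN1 (-1.10 ± 0.40; not called without KI-CDK9d-32 replicate 1, 2 or 4 or vehicle replicate 1, 2, 3 or 4, with adjusted p up to 0.126) and RH4 (adjusted p = 0.0307 by edgeR; not called without KI-CDK9d-32 replicate 1, 3 or 4 or vehicle replicate 1, 2 or 4, with adjusted p up to 0.136) rested on single libraries and were lost when both copies were summed. HSPA1A was called in 0 of 15 comparisons by edgeR, with fitted changes between -2.68 and 0.60 (1 at an unadjusted p under 0.05, and 1 by DESeq2). The sum of both copies was called lower in 7 of 15, the 6 of MOLT4 and KB-0742 at 8 h in PSN1.

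Among cytosolic J-domain proteins, the partners that hand clients to HSP70, DNAJB1 was the member lowered most widely. It encodes the canonical inducible partner of HSP70 and was called lower in 14 of 15 comparisons with vehicle and higher in 0. In MOLT4 at 2 h it had 69.1, 75.9, 76.05 and 88.7 CPM with KI-CDK9d-32 and 76.6, 81.9, 85.8 and 106 CPM with KB-0742, against 175, 185, 192 and 194 CPM with vehicle, with every treated library below every vehicle library (-1.27 ± 0.14, adjusted p = 8.35e-09 and -1.09 ± 0.14, adjusted p = 3.06e-08). At 4 h the changes were -1.98 ± 0.16 with the degrader and -0.91 ± 0.15 with the inhibitor. At 8 h they were -1.29 ± 0.15 and -0.30 ± 0.14, the second of which was not called. In PSN1 the 4 h and 8 h changes were -0.43 ± 0.11 and -0.46 ± 0.11 with KI-CDK9d-32 and -0.70 ± 0.11 and -0.81 ± 0.11 with KB-0742. In RH4 KB-0742 gave -1.11 ± 0.19 and -0.69 ± 0.19 at 4 and 8 h. The calls of DNAJB1 that depended on single libraries were KI-CDK9d-32 at 2 h in PSN1 (-0.49 ± 0.11; not called without KI-CDK9d-32 replicate 3 or 4 or vehicle replicate 3, with adjusted p up to 0.0867), at 4 h in RH4 (-0.61 ± 0.18; not called without KI-CDK9d-32 replicate 1, 2, 3 or 4 or vehicle replicate 1, 2 or 4, with adjusted p up to 0.171) and at 8 h in RH4 (-0.53 ± 0.18; not called without KI-CDK9d-32 replicate 2, 3 or 4 or vehicle replicate 1, 2 or 3, with adjusted p up to 0.144).

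DNAJA1, a farnesylated J-domain protein that works with HSPA8, was called lower in 8 of 15 comparisons with vehicle and higher in 0. HSPA8 was also lower with KB-0742 at 4 h in PSN1 and RH4, where DNAJA1 was not called. At 8 h in MOLT4 it had 44.1, 59.98, 70.5 and 72.7 CPM with KI-CDK9d-32, against 397, 447, 461 and 508 CPM with vehicle, without overlap (-2.85 ± 0.13, adjusted p = 1.32e-24). KB-0742 left it at 360.0 ± 56.02 CPM (-0.33 ± 0.11; not called without KB-0742 replicate 4, with adjusted p up to 0.0567). At 4 h in MOLT4 the changes were -1.01 ± 0.12 and -0.72 ± 0.12. At 8 h they were -0.71 ± 0.14 with KI-CDK9d-32 in PSN1, and -0.77 ± 0.12 and -0.89 ± 0.12 with KI-CDK9d-32 and KB-0742 in RH4. KB-0742 in PSN1 gave -0.43 ± 0.14 (not called without KB-0742 replicate 1 or vehicle replicate 1, with adjusted p up to 0.197).

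Its close relative DNAJA2 separated the compounds. In MOLT4 at 8 h it had 5.51, 6.99, 9.14 and 11.5 CPM with KI-CDK9d-32 and 127, 138, 184 and 194 CPM with KB-0742, against 45.1, 49.03, 62.1 and 69.4 CPM with vehicle. All degrader libraries lay below and all inhibitor libraries above the vehicle range (-2.73 ± 0.21, adjusted p = 1.3e-15, and 1.51 ± 0.15, adjusted p = 6.94e-12; the rise was 0.18 with spike-in scaling). At 2 h both compounds had lowered it (-0.76 ± 0.16 and -0.70 ± 0.16). At 4 h its change with KI-CDK9d-32 was -1.40 ± 0.18, and the difference from 2 h was not tested. In PSN1 at 8 h KI-CDK9d-32 lowered it (-0.67 ± 0.18). Calls that rested on single libraries were a rise with KB-0742 in PSN1 at 4 h (0.52 ± 0.17; not called without KB-0742 replicate 3 or vehicle replicate 1 or 4, with adjusted p up to 0.135; -0.36 with spike-in scaling) and in RH4 at 8 h (0.47 ± 0.18; not called without KB-0742 replicate 1 or 2 or vehicle replicate 1, with adjusted p up to 0.176; -1.16 with spike-in scaling), and a fall with KI-CDK9d-32 in RH4 at 8 h (-0.62 ± 0.18; not called without KI-CDK9d-32 replicate 1 or vehicle replicate 3, with adjusted p up to 0.0668).

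DNAJC2, which holds HSP70 at the ribosome together with HSPA14, rose with KB-0742 in all 3 lines at 4 h and 8 h. At 8 h in PSN1 it had 176, 179, 191 and 196 CPM with KB-0742, against 41.8, 45.1, 67.8 and 82.3 CPM with vehicle, without overlap (1.66 ± 0.16, adjusted p = 1.99e-10, and 0.77 with spike-in scaling). In MOLT4 and RH4 the 8 h changes with KB-0742 were 1.55 ± 0.14, and 0.23 with spike-in scaling, and 1.09 ± 0.16, and -0.51 with spike-in scaling. KI-CDK9d-32 lowered it in MOLT4 (-0.82 ± 0.16 at 4 h and -1.07 ± 0.17 at 8 h) and gave uncalled values of -0.42 ± 0.17 in PSN1 and -0.36 ± 0.17 in RH4 at 8 h.

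DNAJB6, a suppressor of protein aggregation, was higher with KI-CDK9d-32 and lower with KB-0742 at 2 h in MOLT4. KI-CDK9d-32 raised it relative to other genes in MOLT4 at 2 h (0.53 ± 0.12, and 0.17 with spike-in scaling) and 8 h (0.86 ± 0.12, and -1.97 with spike-in scaling) and in PSN1 at 8 h (0.60 ± 0.13, and -0.34 with spike-in scaling). In MOLT4 at 2 h the libraries were at 109.8, 127, 131 and 134 CPM with KI-CDK9d-32 and 50.5, 53.2, 63.4 and 68.7 CPM with KB-0742, against 74.5, 90.7, 90.7 and 90.8 CPM with vehicle. The degrader libraries lay above and the inhibitor libraries below all vehicle libraries (-0.56 ± 0.12, adjusted p = 0.000496 for KB-0742). Its fall with KB-0742 at 4 h was -0.41 ± 0.13 (not called without KB-0742 replicate 3 or vehicle replicate 3, with adjusted p up to 0.107), and at 8 h KB-0742 raised it (0.40 ± 0.12, and -0.91 with spike-in scaling). Its rises with KI-CDK9d-32 at 4 h in MOLT4 (0.43 ± 0.13; not called without vehicle replicate 4, with adjusted p up to 0.0793), at 4 h in PSN1 (0.51 ± 0.13; not called without KI-CDK9d-32 replicate 2, with adjusted p up to 0.0626) and at 8 h in RH4 (0.49 ± 0.17; not called without KI-CDK9d-32 replicate 1, 2, 3 or 4 or vehicle replicate 1, 3 or 4, with adjusted p up to 0.128) depended on single libraries, and their spike-in values were -0.57, -0.085 and -0.39.

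The remaining J-domain members were DNAJC7 and DNAJB4. DNAJC7, which passes clients between HSP70 and HSP90, was lowered by KI-CDK9d-32 in MOLT4 at 8 h (-1.26 ± 0.19). Its calls with KB-0742 in MOLT4 at 4 h (-0.45 ± 0.18; not called without KB-0742 replicate 1 or 2 or vehicle replicate 1 or 3, with adjusted p up to 0.191) and RH4 at 8 h (-0.36 ± 0.14; not called without KB-0742 replicate 3 or 4 or vehicle replicate 2 or 3, with adjusted p up to 0.0988) rested on single libraries. DNAJB4, a relative of DNAJB1, had few counts and was lower with KB-0742 in MOLT4 at 2 h (-2.73 ± 0.81). With KI-CDK9d-32 in MOLT4 at 4 h it had 2 counts in 4 libraries, against 22 in 3 vehicle libraries, a ratio of 0.0811 (95% exact counting interval 0.00924 to 0.330) (not called without KI-CDK9d-32 replicate 2, with adjusted p up to 0.0593). Its call with KB-0742 at 4 h in PSN1 was -1.78 ± 0.68 (not called without KB-0742 replicate 1, 2 or 3 or vehicle replicate 1 or 3, with adjusted p up to 0.269). These intervals and floors cover counting error alone. Reads amplified by PCR without molecular identifiers do not stand for separate molecules.

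**Figure D3:**
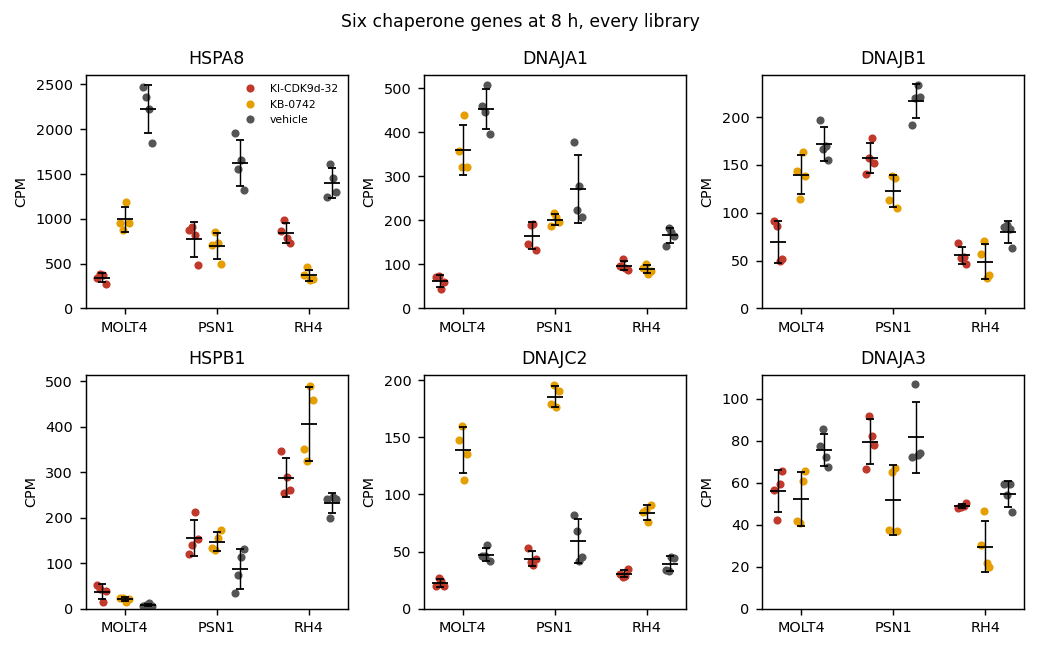
TMM-scaled CPM of HSPA8, DNAJA1, DNAJB1, HSPB1, DNAJC2 and DNAJA3 at 8 h in every library (points; KI-CDK9d-32 red, KB-0742 orange, vehicle grey; black bars, mean and SD, n = 4), by line. HSPA8 is below vehicle with both compounds in each line, and DNAJC2 is above vehicle with KB-0742 only, at 8 h.

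Where they were called, both cytosolic HSP90 genes were mostly higher relative to other genes. The cochaperones AHSA1 and STIP1 were called in both directions. HSP90AB1 was called higher in 8 of 15 comparisons and lower in 0, and HSP90AA1, the inducible HSP90, higher in 6 and lower in 1. HSP90AA1 in MOLT4 at 8 h had 1559, 1661, 1812 and 1939.9 CPM with KI-CDK9d-32, above all of the vehicle libraries at 886, 1197, 1214 and 1252 CPM (0.62 ± 0.11, and -2.15 with spike-in scaling). With KB-0742 it was 0.56 ± 0.11, and -0.24 with spike-in scaling, at 2 h, and 0.34 ± 0.12 at 4 h (not called without KB-0742 replicate 2 or vehicle replicate 4, with adjusted p up to 0.162; -0.92 with spike-in scaling). At 8 h it was -0.27 ± 0.11 (not called without KB-0742 replicate 3 or 4 or vehicle replicate 1, 2 or 3, with adjusted p up to 0.186). HSP90AB1 in MOLT4 changed by 0.47 ± 0.086, and -2.29 with spike-in scaling, with KI-CDK9d-32 at 8 h, and by 0.38 ± 0.086, 0.41 ± 0.094 and 0.38 ± 0.086 with KB-0742 at 2, 4 and 8 h (-0.42, -0.83 and -0.94 with spike-in scaling).

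In RH4 both HSP90 genes rose with KB-0742 at 4 h (0.57 ± 0.084 and 0.57 ± 0.094) and 8 h (0.60 ± 0.084 and 0.78 ± 0.095). HSP90AB1 also rose with KI-CDK9d-32 at 8 h (0.36 ± 0.094). The spike-in values of these 5 changes lay between -0.98 and -0.46. HSP90AA1 with KI-CDK9d-32 at 8 h was 0.26 ± 0.084 (not called without KI-CDK9d-32 replicate 1 or 2 or vehicle replicate 1 or 4, with adjusted p up to 0.102; -0.64 with spike-in scaling). In PSN1 HSP90AB1 was called with KB-0742 at 4 h (0.32 ± 0.11; not called without KB-0742 replicate 2 or 3 or vehicle replicate 3 or 4, with adjusted p up to 0.137; -0.51 with spike-in scaling), and HSP90AA1 in 0 comparisons by edgeR, with changes between -0.056 and 0.29 (1 at an unadjusted p under 0.05, and 0 by DESeq2).

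AHSA1, which stimulates the ATPase of HSP90, fell with KI-CDK9d-32 in MOLT4 (-2.03 ± 0.14, adjusted p = 3.52e-18) and RH4 (-0.45 ± 0.12) at 8 h and rose with KB-0742 in PSN1 at 4 h (0.74 ± 0.12, and -0.089 with spike-in scaling) and 8 h (0.55 ± 0.12, and -0.33 with spike-in scaling). STIP1, the adaptor that joins HSP70 to HSP90, fell with KB-0742 in MOLT4 at 4 h (-0.59 ± 0.12) and 8 h (-0.54 ± 0.12) and in RH4 at 8 h (-0.67 ± 0.11). Its fall with KI-CDK9d-32 in MOLT4 at 8 h was -0.31 ± 0.12 (not called without KI-CDK9d-32 replicate 1 or 3 or vehicle replicate 1 or 2, with adjusted p up to 0.163), and that of AHSA1 at 4 h was -0.41 ± 0.13 (not called without KI-CDK9d-32 replicate 4, with adjusted p up to 0.0592). In PSN1 STIP1 was called higher with KI-CDK9d-32 at 4 h (0.36 ± 0.11; not called without KI-CDK9d-32 replicate 1, 2 or 3 or vehicle replicate 1, 3 or 4, with adjusted p up to 0.112) and 8 h (0.42 ± 0.11; not called without KI-CDK9d-32 replicate 3, with adjusted p up to 0.0857), with -0.25 and -0.52 under spike-in scaling. It was also called with KB-0742 at 8 h (0.30 ± 0.11; not called without KB-0742 replicate 1, 2 or 3 or vehicle replicate 1, 3 or 4, with adjusted p up to 0.104; -0.58 with spike-in scaling).

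HSPB1, which holds unfolding proteins without ATP, was called higher in 8 of 15 comparisons and lower in 0. In MOLT4 at 8 h it had 13.8, 39.02, 43.6 and 52.2 CPM with KI-CDK9d-32 and 13.9, 21.6, 23.4 and 23.99 CPM with KB-0742, against 6.24, 6.77, 8.07 and 12.6 CPM with vehicle. Every treated library lay above every vehicle library (2.17 ± 0.29, adjusted p = 9.45e-09, and 1.31 ± 0.29, adjusted p = 0.000195), and spike-in scaling turned the changes to -0.50 and -0.0021. In RH4 KB-0742 raised it to 324, 351, 459 and 489 CPM, against 199, 241, 242 and 245 CPM with vehicle at 8 h (0.81 ± 0.12, and -0.76 with spike-in scaling), and at 4 h the change was 0.82 ± 0.12, and -0.25 with spike-in scaling. In MOLT4 at 4 h it was called with KI-CDK9d-32 (0.74 ± 0.30; not called without KI-CDK9d-32 replicate 1 or 4 or vehicle replicate 3 or 4, with adjusted p up to 0.197; -0.16 with spike-in scaling) and KB-0742 (0.97 ± 0.30; not called without vehicle replicate 3 or 4, with adjusted p up to 0.0588; -0.30 with spike-in scaling). In PSN1 at 8 h the groups overlapped and both calls rested on single libraries, 0.82 ± 0.26 with KI-CDK9d-32 (not called without KI-CDK9d-32 replicate 3 or 4 or vehicle replicate 1 or 2, with adjusted p up to 0.142; -0.15 with spike-in scaling) and 0.73 ± 0.26 with KB-0742 (not called without KB-0742 replicate 3 or 4 or vehicle replicate 1 or 2, with adjusted p up to 0.101; -0.23 with spike-in scaling).

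HSPB11 carries a heat shock name and is now called IFT25, a subunit of the intraflagellar transport complex. It fell with KB-0742 at 8 h in MOLT4 (-1.53 ± 0.18, adjusted p = 1.02e-09) and RH4 (-1.56 ± 0.17, adjusted p = 5.59e-10), after an early rise relative to other genes in MOLT4 at 2 h (0.60 ± 0.16, and -0.22 with spike-in scaling). With KI-CDK9d-32 it was called in MOLT4 at 2 h only (0.50 ± 0.16; not called without KI-CDK9d-32 replicate 1 or 3 or vehicle replicate 1, 3 or 4, with adjusted p up to 0.0837). The values with KB-0742 at 8 h in PSN1 (-0.018 ± 0.16) were not called.

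Of the heat shock factors, HSF1, the main activator of the stress response, was called in 0 of 15 comparisons by edgeR, with changes between -0.40 and 0.41 (1 at an unadjusted p under 0.05, and 0 by DESeq2). These values concern its transcript and not its activity. HSF2, a second factor that acts in development and stress, rose with KB-0742 in MOLT4, where at 8 h it had 59.7, 62.4, 69.9 and 85.1 CPM, against 14.8, 19.3, 21.7 and 22.8 CPM with vehicle (1.82 ± 0.21, adjusted p = 5.23e-10, and 0.50 with spike-in scaling). Every treated library lay above every vehicle library. In RH4 the 8 h rise with KB-0742 was 1.34 ± 0.38, and -0.25 with spike-in scaling, and in PSN1 it was 1.35 ± 0.45 (not called without vehicle replicate 2 or 4, with adjusted p up to 0.0754). KI-CDK9d-32 lowered HSF2 in MOLT4 at 4 h (-1.57 ± 0.27), where KB-0742 raised it (0.97 ± 0.23; -0.40 with spike-in scaling), and at 8 h (-0.82 ± 0.26; not called without KI-CDK9d-32 replicate 4, with adjusted p up to 0.0575).

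BAG5, a nucleotide exchange factor of HSP70, rose with KB-0742 at 8 h in MOLT4 (1.86 ± 0.23, and 0.55 with spike-in scaling) and RH4 (1.45 ± 0.27, and -0.14 with spike-in scaling). At 4 h in MOLT4 it rose with KB-0742 (0.93 ± 0.25, and -0.32 with spike-in scaling) and was called lower with KI-CDK9d-32 (-0.78 ± 0.28; not called without KI-CDK9d-32 replicate 4 or vehicle replicate 1, with adjusted p up to 0.217). Its rise with KI-CDK9d-32 at 8 h in RH4 was 0.79 ± 0.26 (not called without KI-CDK9d-32 replicate 1, 2 or 4 or vehicle replicate 1, 2 or 4, with adjusted p up to 0.129; -0.14 with spike-in scaling). BAG1, which links HSP70 to the proteasome, was called in MOLT4 with KI-CDK9d-32 at 8 h (-0.99 ± 0.36; not called without KI-CDK9d-32 replicate 3 or 4 or vehicle replicate 1, with adjusted p up to 0.104) and in no other comparison with vehicle. BAG3, which routes clients to autophagy and is a well-known target of HSF1, was tested in PSN1 and RH4 and called in 0 of 9 comparisons by edgeR, with changes between -0.72 and 0.40 (0 at an unadjusted p under 0.05, and 0 by DESeq2).

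**Figure D4:**
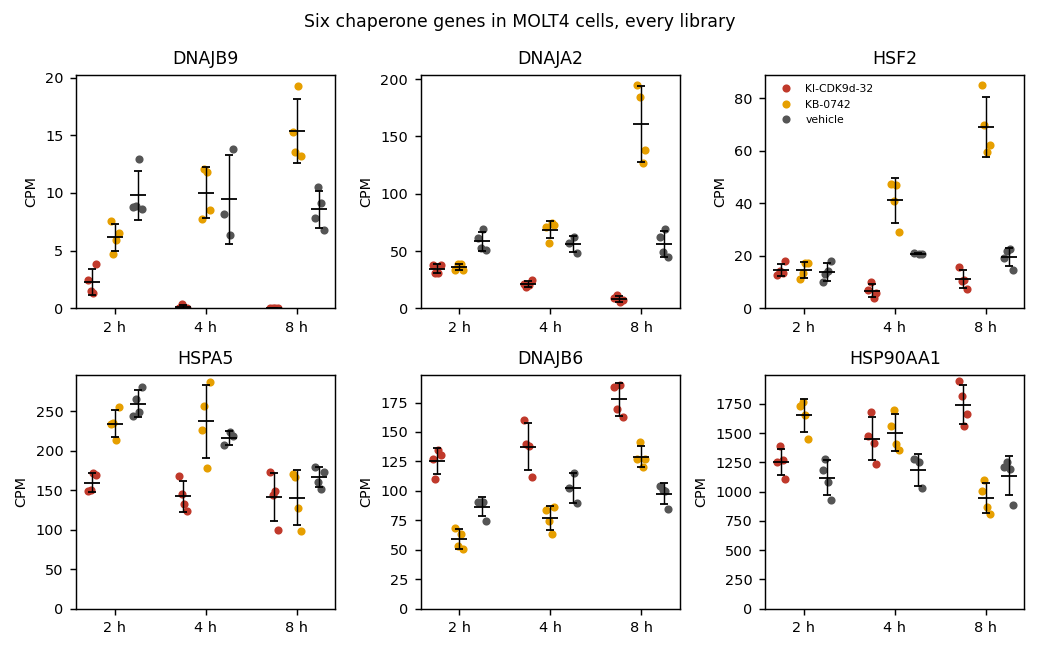
TMM-scaled CPM in MOLT4 of DNAJB9, DNAJA2, HSF2, HSPA5, DNAJB6 and HSP90AA1 at 2, 4 and 8 h in every library (points; KI-CDK9d-32 red, KB-0742 orange, vehicle grey; black bars, mean and SD; n = 4, or n = 3 for vehicle at 4 h). DNAJB9 reaches 0 with KI-CDK9d-32 at 8 h, while DNAJA2 and HSF2 are highest with KB-0742 at that time.

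Among ER chaperones, DNAJB9 had the largest change of any member. It encodes an ER J-domain protein that restrains the stress sensor IRE1. In MOLT4 with KI-CDK9d-32 it had 1.36, 1.49, 2.46 and 3.83 CPM at 2 h, 0, 0, 0 and 0.379 CPM at 4 h and 0 in all 4 libraries at 8 h. Vehicle libraries had 8.61, 8.78, 8.85 and 12.9 CPM, 6.39, 8.15 and 13.8 CPM and 6.77, 7.87, 9.11 and 10.6 CPM at these times, and the groups overlapped at no time. At 2 h the change was -2.07 ± 0.37, adjusted p = 0.000129. At 4 h 1 count stood against 105 with vehicle, a ratio of 0.00850 (95% exact counting interval 0.000213 to 0.0484; adjusted p = 6.28e-10). At 8 h the 110 counts of vehicle stood against 0, so that DNAJB9 was at least 34.5-fold lower at a floor of 3 counts over the group (adjusted p = 7.55e-10).

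With KB-0742 DNAJB9 was called lower in 0 of 7 comparisons by edgeR (0 at an unadjusted p under 0.05, and 0 by DESeq2). In MOLT4 it was at 13.2, 13.6, 15.3 and 19.3 CPM at 8 h (0.84 ± 0.33; not called without KB-0742 replicate 1 or 3 or vehicle replicate 1, 3 or 4, with adjusted p up to 0.103; -0.46 with spike-in scaling). In RH4 KB-0742 raised it to 20.9, 25.5, 31.03 and 32.99 CPM at 8 h, against 7.42, 8.09, 9.09 and 11.1 CPM with vehicle (1.63 ± 0.26, adjusted p = 2.6e-06, and 0.027 with spike-in scaling). KI-CDK9d-32 lowered it in PSN1 at 4 h (-1.56 ± 0.41), and its 8 h values of -0.85 ± 0.39 in PSN1 and -0.29 ± 0.28 in RH4 were not called.

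HSPA5, the ER HSP70 also called BiP, fell with KI-CDK9d-32 in MOLT4 at 2 h (-0.70 ± 0.13) and 4 h (-0.60 ± 0.14), while its 8 h change missed the threshold (-0.24 ± 0.14). In RH4 it had 669.6, 715, 763 and 838 CPM with KB-0742 at 8 h, against 287, 315, 355 and 357 CPM with vehicle. Every treated library lay above every vehicle library (1.18 ± 0.10, adjusted p = 8.66e-13), after 0.53 ± 0.10 at 4 h, and spike-in scaling gave -0.41 and -0.51. In PSN1 it was called with KB-0742 at 4 h (0.31 ± 0.12; not called without KB-0742 replicate 1, 2 or 3 or vehicle replicate 1, 2 or 4, with adjusted p up to 0.232; -0.53 with spike-in scaling). Its uncalled changes lay between -0.25 and 0.21.

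All 5 ER members were called higher in RH4 with KB-0742 at 8 h, when 22.5% of all tested genes were, and 0 of the 5 with spike-in scaling. Beside HSPA5 and DNAJB9 these were HSP90B1, the ER HSP90 (0.88 ± 0.11, and -0.71 with spike-in scaling), DNAJB11, a J-domain partner of HSPA5 (0.70 ± 0.15, and -0.85 with spike-in scaling), and HSPA13, a microsomal HSP70 (1.05 ± 0.34; not called without KB-0742 replicate 2, with adjusted p up to 0.185; -0.55 with spike-in scaling). In MOLT4 with KB-0742 at 8 h DNAJB11 fell (-0.63 ± 0.18), HSPA13 rose (1.63 ± 0.34, and 0.30 with spike-in scaling) and HSP90B1 was not called (-0.13 ± 0.13). KI-CDK9d-32 lowered DNAJB11 there (-1.76 ± 0.22), and HSPA13 was called lower (-1.0046 ± 0.41; not called without KI-CDK9d-32 replicate 1, 3 or 4 or vehicle replicate 1 or 3, with adjusted p up to 0.109). HSP90B1 rose with KB-0742 in PSN1 at 4 h (0.55 ± 0.12, and -0.32 with spike-in scaling) and 8 h (0.48 ± 0.12, and -0.37 with spike-in scaling) and in RH4 at 4 h (0.56 ± 0.11, and -0.51 with spike-in scaling), and with KI-CDK9d-32 in RH4 at 8 h (0.45 ± 0.10, and -0.46 with spike-in scaling).

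Of the mitochondrial chaperones, DNAJA3, the J-domain protein that serves HSPA9, was called lower most often. KB-0742 lowered DNAJA3 in all 3 lines at 4 h (MOLT4 -0.99 ± 0.18, PSN1 -0.93 ± 0.17, RH4 -0.98 ± 0.19) and again at 8 h (-0.53 ± 0.16, -0.65 ± 0.16 and -0.88 ± 0.19), and in MOLT4 at 2 h (-0.92 ± 0.16). At 4 h in PSN1 it had 37.2, 43.5, 47.1 and 50.3 CPM with KB-0742, against 76.9, 82.8, 88.8 and 89.6 CPM with vehicle, without overlap. KI-CDK9d-32 gave a call in MOLT4 at 8 h (-0.44 ± 0.16; not called without KI-CDK9d-32 replicate 1 or 2 or vehicle replicate 2, with adjusted p up to 0.191) and none in PSN1 or RH4, with -0.031 ± 0.16 and -0.16 ± 0.17 at 8 h.

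HSPE1 rose relative to other genes in MOLT4 with KI-CDK9d-32 at 8 h (0.44 ± 0.10, and -2.41 with spike-in scaling) and with KB-0742 at 2 h (0.51 ± 0.10, and -0.27 with spike-in scaling) and 4 h (0.50 ± 0.11, and -0.83 with spike-in scaling). HSPD1, the HSP60 barrel that HSPE1 caps and that is transcribed from the same bidirectional promoter, changed by -0.031 ± 0.10 and 0.10 ± 0.10 at 8 h in MOLT4, neither of them called. It rose with KB-0742 at 4 h in RH4 (0.44 ± 0.12, and -0.60 with spike-in scaling) and at 2 h in MOLT4 (0.41 ± 0.10, and -0.40 with spike-in scaling). HSPA9, the mitochondrial HSP70, rose with KB-0742 at 8 h in MOLT4 (0.56 ± 0.11, and -0.76 with spike-in scaling) and was called lower there at 4 h (-0.35 ± 0.13; not called without KB-0742 replicate 1, 2 or 3 or vehicle replicate 1 or 3, with adjusted p up to 0.0761), with uncalled changes between 0.0085 and 0.28 in PSN1 and RH4.

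Further calls of this pair rested on single libraries. HSPD1 was called higher with KB-0742 in MOLT4 at 4 h (0.35 ± 0.11; not called without vehicle replicate 4, with adjusted p up to 0.0796; -0.90 with spike-in scaling) and in PSN1 at 4 h (0.38 ± 0.13; not called without KB-0742 replicate 1 or 3 or vehicle replicate 1 or 4, with adjusted p up to 0.11; -0.47) and 8 h (0.36 ± 0.13; not called without KB-0742 replicate 1 or 2 or vehicle replicate 3 or 4, with adjusted p up to 0.145; -0.51). HSPE1 was called higher with KI-CDK9d-32 in MOLT4 at 2 h (0.38 ± 0.10; not called without KI-CDK9d-32 replicate 2 or vehicle replicate 4, with adjusted p up to 0.0765; -0.0011 with spike-in scaling) and 4 h (0.32 ± 0.11; not called without KI-CDK9d-32 replicate 2 or 3 or vehicle replicate 3 or 4, with adjusted p up to 0.164; -0.68) and with KB-0742 in RH4 at 4 h (0.30 ± 0.11; not called without KB-0742 replicate 3 or 4 or vehicle replicate 1 or 2, with adjusted p up to 0.121; -0.74). The direction of HSPE1 in MOLT4 at 8 h also depended on the scale, since in TPM it averaged 771 ± 107 in degrader libraries and 675 ± 58.4 in inhibitor libraries, against 1359 ± 117 with vehicle (SD, n = 4 each).

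HSPE1 was not alone in this. Of the members called higher at 8 h with KI-CDK9d-32, the mean TPM lay below that of vehicle for 6 of 7 in MOLT4, 3 of 4 in PSN1 and 4 of 5 in RH4. With KB-0742 it did for 5 of 13 in MOLT4, 3 of 9 in PSN1 and 8 of 14 in RH4. In RH4 those 8 were HSPA4, DNAJA2, HSP90AA1, HSP90AB1, HSPB1, DNAJB11, HSP90B1 and CCT8, and HSPB1 averaged 365 ± 34.4 TPM with KB-0742, against 421 ± 34.5 TPM with vehicle (SD, n = 4 each).

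The 7 CCT members are part of the same ring and did not move together. A further subunit, CCT6A, is not a member and was counted with the other cytosolic chaperones. At 8 h CCT6A was called lower in MOLT4 with KI-CDK9d-32 (-0.55 ± 0.14) and KB-0742 (-0.53 ± 0.14). It was also called lower in RH4 with KB-0742 (-0.72 ± 0.11). It was not called at 8 h in RH4 with KI-CDK9d-32, or in PSN1 with either compound. In MOLT4 at 8 h KI-CDK9d-32 lowered 4 of the 7 members, when 28.7% of all tested genes were called lower and 20.8% higher. With spike-in scaling 10609 of all 11664 genes were called lower there. The 4 were CCT2 (-1.62 ± 0.10, adjusted p = 1.15e-19), CCT5 (-0.90 ± 0.10), CCT4 (-0.68 ± 0.10) and CCT3 (-0.56 ± 0.10). KI-CDK9d-32 raised CCT8 relative to other genes (0.46 ± 0.094, and -2.38 with spike-in scaling). CCT7 was called higher at 4 h (0.43 ± 0.089, and -0.53 with spike-in scaling), and at 8 h (0.24 ± 0.082; not called without vehicle replicate 3, with adjusted p up to 0.0612; -2.56 with spike-in scaling). TCP1 was not called (-0.033 ± 0.09). In RH4 CCT2 fell with both compounds at 8 h (-0.62 ± 0.10 for the degrader and -0.72 ± 0.10 for the inhibitor), CCT2 already at 4 h with KB-0742 (-0.40 ± 0.10), and CCT4 (-0.72 ± 0.10) and CCT5 (-0.45 ± 0.12) fell with KB-0742. CCT8 rose with KB-0742 at 8 h in MOLT4 (0.71 ± 0.092, and -0.60 with spike-in scaling), PSN1 (0.70 ± 0.13, and -0.17 with spike-in scaling) and RH4 (0.43 ± 0.10, and -1.17 with spike-in scaling). CCT3 (-0.54 ± 0.10) and CCT5 (-0.52 ± 0.10) fell with KB-0742 in MOLT4 at 8 h. CCT7 rose with KB-0742 in MOLT4 at 4 h (0.60 ± 0.089, and -0.67 with spike-in scaling) and in RH4 at 4 h (0.45 ± 0.094, and -0.59 with spike-in scaling). TCP1 rose in MOLT4 with KB-0742 at 2 h (0.37 ± 0.088, and -0.41 with spike-in scaling), and at 8 h it was 0.23 ± 0.089 (not called without KB-0742 replicate 3 or vehicle replicate 1 or 4, with adjusted p up to 0.108; -1.08 with spike-in scaling). It was called in 0 of the 9 comparisons of PSN1 and RH4 by edgeR, with changes between -0.0031 and 0.33 (3 at an unadjusted p under 0.05, and 0 by DESeq2).

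The compounds were compared directly at the same line and time. The labels give no doses, so these are differences between the treatments as given. In MOLT4 the degrader libraries had 2 members higher and 7 lower than the inhibitor libraries at 2 h (8.20% and 10.1% of all genes; 1 up and 0 down with spike-in scaling). The numbers were 5 and 13 at 4 h (14.6% and 21.1%; 0 up and 5 down). At 8 h they were 5 and 22 (28.9% and 29.6%; 0 up and 31 down). Over all 11664 genes spike-in scaling gave 396 up and 89 down at 2 h. It gave 895 up and 744 down at 4 h, and 274 up and 6390 down at 8 h. Leading differences at 8 h were DNAJB9, at least 39.7-fold lower with KI-CDK9d-32, DNAJA2 (-4.24 ± 0.21, adjusted p = 5.01e-23), HSF2 (-2.64 ± 0.25) and HSPA4 (-1.92 ± 0.14). AHSA1 (-1.96 ± 0.14), CCT2 (-1.63 ± 0.10), HSPA8 (-1.53 ± 0.12) and BAG1 (-1.50 ± 0.36) were also lower. HSPB11 (1.66 ± 0.19), HSP90AA1 (0.89 ± 0.11) and HSPE1 (0.65 ± 0.11) were higher with KI-CDK9d-32, and stood at 0.043, -0.57 and -0.89 with spike-in scaling. At 2 h DNAJB9 (-1.40 ± 0.39) and DNAJC2 (-0.61 ± 0.14) were lower and DNAJB6 (1.09 ± 0.12) and DNAJA3 (0.73 ± 0.16) higher with KI-CDK9d-32. At 4 h HSF2 was lower (-2.53 ± 0.25), and DNAJB6 (0.84 ± 0.13) and DNAJA3 (0.65 ± 0.17) were higher.

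In PSN1 the degrader libraries had 2 members higher and 5 lower than the inhibitor libraries at 4 h (10.00% and 7.45% of all genes; 1 up and 0 down with spike-in scaling). At 8 h they had 5 and 6 (12.0% and 12.8%; 0 up and 3 down), or 7 in all without KB-0742 replicate 1 and 7 without KI-CDK9d-32 replicate 3. Over all 12471 genes spike-in scaling gave 1091 up and 227 down at 4 h, and 644 up and 883 down at 8 h. At 8 h DNAJC2 (-2.08 ± 0.17, adjusted p = 9.41e-13), HSF2 (-1.84 ± 0.48), AHSA1 (-0.64 ± 0.12) and CCT8 (-0.51 ± 0.13) were lower and DNAJB6 (0.78 ± 0.14) higher with KI-CDK9d-32. At 4 h DNAJA3 (1.12 ± 0.17) and DNAJB6 (0.52 ± 0.13) were higher and DNAJC2 (-0.79 ± 0.16) lower. HSPA8 was not called at 8 h, with a difference of 0.15 ± 0.14 and an approximate 95% interval of -0.14 to 0.43. HSPB1 was not called either (0.085 ± 0.26, interval -0.42 to 0.59).

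In RH4 the degrader libraries had 3 members higher and 9 lower than the inhibitor libraries at 4 h (13.4% and 12.4% of all genes), and 8 and 16 at 8 h (19.1% and 19.3%). Spike-in scaling turned that balance, with 12 up and 0 down at 4 h and 16 up and 2 down at 8 h. Over all 12058 genes it gave 4128 up and 150 down at 4 h, and 4419 up and 361 down at 8 h. HSPA14 (2.20 ± 0.36, adjusted p = 4.19e-06), HSPB11 (1.38 ± 0.17), HSPA8 (1.18 ± 0.13), STIP1 (0.79 ± 0.11) and CCT4 (0.46 ± 0.10) were higher with KI-CDK9d-32 at 8 h. DNAJB9 (-1.92 ± 0.28), HSF2 (-1.49 ± 0.39), DNAJC2 (-1.46 ± 0.17) and HSPA5 (-0.97 ± 0.10) were lower. With spike-in scaling HSPA5 and DNAJB9 stayed below the inhibitor level (-0.29 and -1.22). At 4 h HSPA8 (0.76 ± 0.12) and DNAJA3 (0.84 ± 0.19) were higher and HSF2 (-1.48 ± 0.41) and DNAJC2 (-0.97 ± 0.17) lower. DNAJB1 at 8 h was not called, with a difference of 0.17 ± 0.19 and an approximate interval of -0.21 to 0.55.

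**Figure D5:**
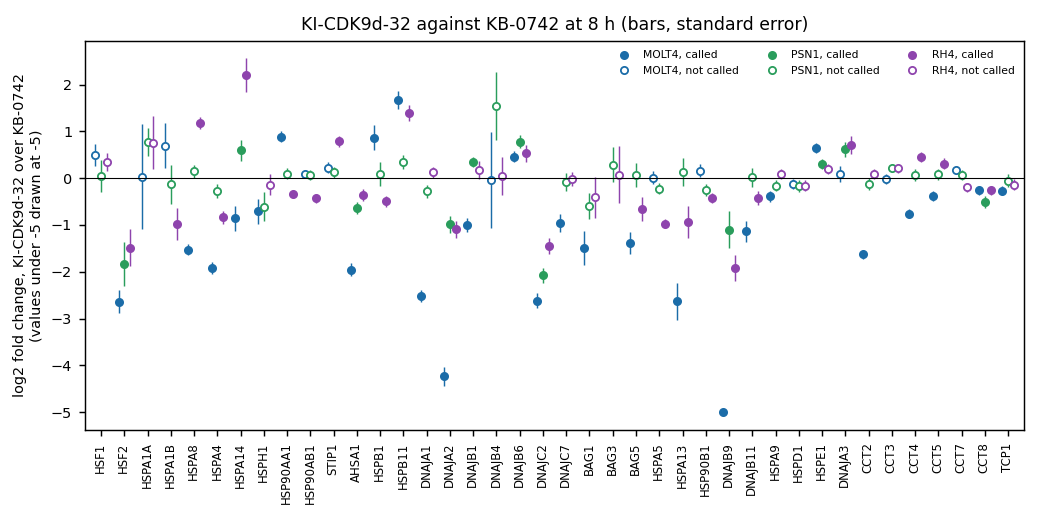
Log2 fold change of KI-CDK9d-32 over KB-0742 at 8 h (TMM scaling, bars standard error) for the 40 genes in MOLT4, PSN1 and RH4; filled points were called. HSF2 and DNAJC2 lie below 0 in all 3 lines, and HSPA8 lies below 0 in MOLT4 and above 0 in RH4; DNAJB9 in MOLT4 is drawn at the lower edge.

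The change of each effect between 4 h and 8 h was tested as 8 h minus 4 h. For KI-CDK9d-32 in MOLT4 it was called for 14 members (12.5% of all genes; 0 up and 31 down with spike-in scaling), 11 of which became more negative. HSPA8 (-2.08 ± 0.17, adjusted p = 1.06e-10), DNAJA1 (-1.84 ± 0.17), AHSA1 (-1.62 ± 0.19), DNAJB11 (-1.61 ± 0.29) and CCT2 (-1.47 ± 0.14) led. For KB-0742 in MOLT4 13 members were called (17.7%; 0 up and 0 down with spike-in scaling), with HSPB11 most negative (-1.74 ± 0.25) and DNAJA2 most positive (1.21 ± 0.22). In RH4 KB-0742 gave 12 (8.49%; 0 up and 4 down with spike-in scaling), among them HSPA14 (-1.89 ± 0.45), HSPA8 (-0.94 ± 0.18) and DNAJB9 (1.87 ± 0.38). Over all genes spike-in scaling gave 8 up and 5294 down for KI-CDK9d-32 in MOLT4. For KB-0742 it gave 0 up and 0 down in MOLT4, and 2 up and 303 down in RH4.

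Without the replicate block, no member was called by edgeR for KI-CDK9d-32 in PSN1 (0.0160% of all genes; 4 members at an unadjusted p under 0.05, and 0 by DESeq2) or RH4 (0%; 7, and 2 by DESeq2), nor for KB-0742 in PSN1 (1.88%; 6, and 2 by DESeq2). Of these, the last count became 1 without PSN1 vehicle 8 h replicate 1 or 4, KB-0742 8 h replicate 2 or KB-0742 4 h replicate 4. With the replicate block some members were called for each of these effects, as given at the end.

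The 8 h effects of the lines were compared in a joint fit of all 91 libraries. For KI-CDK9d-32, 18 members differed between MOLT4 and PSN1 (17.6% of all genes), 16 of them more negative in MOLT4, and 17 between MOLT4 and RH4 (16.7%), 15 more negative in MOLT4. DNAJA1 (-2.07 ± 0.19, adjusted p = 2.63e-15), AHSA1 (-1.87 ± 0.17), CCT2 (-1.62 ± 0.15) and HSPA8 (-1.55 ± 0.20) were more negative in MOLT4 than in PSN1, and the same 4 differed from RH4 by -2.02 ± 0.19, -1.51 ± 0.18, -0.94 ± 0.15 and -1.90 ± 0.20. DNAJB9 also differed (adjusted p = 1.26e-06 and 5.79e-08). HSPB1 rose more in MOLT4 than in RH4 (1.95 ± 0.37). Between PSN1 and RH4 1 member was called (0.573%), CCT2 (0.69 ± 0.15; not called without replicate 3 or 4, with adjusted p up to 0.124). With spike-in scaling the differences were 0 up and 38 down between MOLT4 and PSN1, 0 up and 38 down between MOLT4 and RH4 and 0 up and 0 down between PSN1 and RH4. Over all 15881 genes they were 100 up and 7799 down, 82 up and 8484 down, and 7 up and 3 down.

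For KB-0742, 10 members differed between MOLT4 and PSN1 (12.3% of all genes; 5 without replicate 2), 12 between MOLT4 and RH4 (9.38%) and 12 between PSN1 and RH4 (7.83%). With spike-in scaling these counts were 0 up and 1 down, 0 up and 0 down and 2 up and 0 down. Over all 15881 genes they were 23 up and 313 down, 51 up and 61 down, and 231 up and 19 down. Of the differences below, those of HSPB11 were called under both scalings and the others with TMM scaling only. The change of HSPA5 in MOLT4 (-1.45 ± 0.18, adjusted p = 1.41e-09) and PSN1 (-1.02 ± 0.18) lay below its rise in RH4. HSP90B1 differed between MOLT4 and RH4 in the same direction (-1.03 ± 0.18). The change of HSPB11 was more negative in MOLT4 than in PSN1 (-1.60 ± 0.24), and its change in PSN1 lay above its fall in RH4 (1.60 ± 0.23). HSPA14 was lowered less in MOLT4 than in RH4 (1.90 ± 0.42), and the change of CCT2 in PSN1 lay above its fall in RH4 (0.99 ± 0.15).

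Called in every line at 8 h were, with KI-CDK9d-32, HSPA8, HSPA1B, DNAJA1, DNAJA2 and DNAJB1 as lower and DNAJB6 as higher. With KB-0742 they were HSPA8, HSPA14, DNAJA1 and DNAJA3 as lower and HSF2, HSPB1, DNAJC2 and CCT8 as higher. Of 9340 genes tested in all 3 lines, 2.69% were called lower and 5.32% higher in every line with KI-CDK9d-32, and 7.36% and 10.3% with KB-0742. With spike-in scaling all of these members' falls were called again in each line, and of the rises only that of DNAJC2 in PSN1. For KI-CDK9d-32 that scaling called 10609 of 11664 genes lower in MOLT4, 6382 of 12471 in PSN1 and 6222 of 12058 in RH4. For KB-0742 these numbers were 6332, 5834 and 9388. A fall called again there thus does not set these members apart. Both compounds share the vehicle libraries of each line. Of these calls, HSPA1B (PSN1 and RH4), DNAJA2, DNAJB1 and DNAJB6 (RH4), DNAJA1 (MOLT4 and PSN1 with KB-0742), HSPB1 and HSF2 (PSN1) were lost when a single library was left out, as given above.

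The members with a 3-unit heat shock word before their start did not share a direction with TMM scaling. At 8 h in MOLT4 with KI-CDK9d-32 HSPA8 changed by -2.69 ± 0.12, while HSP90AA1, HSP90AB1 and DNAJB6 changed by 0.62 ± 0.11, 0.47 ± 0.086 and 0.86 ± 0.12 and HSPD1 by -0.031 ± 0.10. With spike-in scaling HSP90AA1, HSP90AB1 and DNAJB6 stood below vehicle, as given above. Under that scaling 37 members were called lower and 0 higher. Of the members with 2-unit words only, DNAJB1 was lower with TMM scaling (-1.29 ± 0.15), as were HSPA1B, DNAJA1 and CCT2. HSPB1 was higher (2.17 ± 0.29, and -0.50 with spike-in scaling), and HSPA1A, DNAJB4 and TCP1 were not called. HSPA5 and HSP90B1, the members with the ER stress element, both rose with KB-0742 in RH4 at 8 h with TMM scaling, as did the 3 ER members without it. With spike-in scaling 0 members were called higher there.

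Genes of the wider chaperone network outside the 40 were called as follows at 8 h, and are to be read beside the shares of all genes given above. These calls are with TMM scaling, so rises are relative to other genes, and spike-in values are not given for them. For RH4 and KB-0742 at 8 h, 22.5% of all genes were called higher, and spike-in scaling shifted the all-gene median by -1.57. The largest rise among other ER chaperones in that comparison was 1.28 ± 0.22 (DNAJC3). Of other ER chaperones, KI-CDK9d-32 gave 3 up and 4 down of 14 in MOLT4, 7 up and 0 down of 14 in PSN1 and 10 up and 0 down of 14 in RH4. KB-0742 gave 2 up and 10 down of 14 in MOLT4, 5 up and 0 down of 14 in PSN1 and 10 up and 0 down of 14 in RH4. Among them PDIA4, an ER disulfide isomerase, changed by 0.9989 ± 0.11 in RH4 and -0.75 ± 0.12 in MOLT4 with KB-0742, and CALR, an ER lectin chaperone, by 0.82 ± 0.11 and -1.49 ± 0.10.

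Of 33 other cytosolic chaperones and cochaperones, KI-CDK9d-32 gave 5 up and 10 down of 26 tested in MOLT4, 4 up and 5 down of 30 in PSN1 and 4 up and 1 down of 27 in RH4. KB-0742 gave 5 up and 13 down of 26 in MOLT4, 6 up and 6 down of 30 in PSN1 and 6 up and 8 down of 27 in RH4. Of 6 prefoldin subunits, which hand actin and tubulin to CCT, KI-CDK9d-32 gave 2 up and 2 down of 6 in MOLT4, 2 up and 0 down of 6 in PSN1 and 1 up and 2 down of 6 in RH4. KB-0742 gave 3 up and 0 down of 6 in MOLT4, 1 up and 0 down of 6 in PSN1 and 2 up and 1 down of 6 in RH4. Of 5 other mitochondrial chaperones, KI-CDK9d-32 gave 0 up and 3 down of 5 in MOLT4, 1 up and 0 down of 5 in PSN1 and 0 up and 0 down of 5 in RH4. KB-0742 gave 1 up and 3 down of 5 in MOLT4, 1 up and 1 down of 5 in PSN1 and 1 up and 2 down of 5 in RH4.

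In TPM, which is a share of all transcripts and another scale than the TMM values, the summed level of the 40 members was lower in treated cells at 8 h. It was 2447 ± 147 TPM with KI-CDK9d-32 and 3312 ± 287 TPM with KB-0742 in MOLT4, against 6400.0 ± 533 TPM with vehicle. In PSN1 it was 4245 ± 417 and 4113 ± 407 TPM, against 5828 ± 345 TPM, and in RH4 3737 ± 189 and 2831 ± 167 TPM, against 5509 ± 371 TPM (SD, n = 4 each). In each line no treated library reached the lowest vehicle library. The most abundant members weigh most in this sum, and not every class mean fell. Above vehicle stood the BAG family in MOLT4 with KB-0742 (16.1 ± 3.94 against 11.3 ± 2.65 TPM). So did the small heat shock protein names in PSN1 with KI-CDK9d-32 (259 ± 31.5 against 248 ± 57.9 TPM). ER chaperones in RH4 with KB-0742 did too (286 ± 7.25 against 275 ± 14.4 TPM). Class sums were not tested.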

How the data were processed

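RNA from 91 libraries of MOLT4, PSN1 and RH4 cells was made into unstranded SMART-seq2 and Nextera XT libraries without molecular identifiers, per the labels' protocols. The authors deposited 1 table of estimated counts and 1 of log2 TPM per line. Salmon and the hg38 build are named in the submitters' processing notes, and their versions are not given in the sources used here. From the estimated counts, rounded to whole numbers, 62710 genes per table were used, after 92 ERCC and 7 SIRV spike-ins and 47 pseudoautosomal Y entries were set aside. TPM levels were computed back from the deposited log2 values.

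The main test was edgeR 4.0.16 (R 4.3.3): TMM scaling, filterByExpr with a minimum count of 10, robust quasi-likelihood fits of all groups of a line (11664, 12471 and 12058 genes tested in MOLT4, PSN1 and RH4; 15881 in a joint fit for differences between lines) and Benjamini-Hochberg adjustment at 0.05. Standard errors are the log2 fold change divided by the root of F, and 95% intervals are approximate. The fit was tested on simulated data. Alternatives were spike-in scaling, DESeq2 1.42.0 size factors and Wald test, no filter, the replicate number as a block, each library left out, and, added after seeing the data, HSPA1A and HSPA1B summed.

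Members and gene lists were chosen with earlier results of these data known. The text gives 16 key members in each line, the 2 highest and 2 lowest called members of a comparison, the called member with the largest change at 8 h per class, and further members chosen after their values were seen.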

Additional observations from a re-analysis of the deposited data

Results flagged for a closer look

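Of 140 groups of 4 libraries checked over the key members, 6 held a library far from the other 3, when chance gives about 5% of groups. HSPA1A stood at 6.41 CPM in KI-CDK9d-32 replicate 4 of MOLT4 at 8 h and at 0 in the other libraries. In MOLT4 vehicle replicate 4 at 8 h, HSP90AA1 stood at 886 CPM against 1197 to 1252 in the others, and HSPD1 at 251 CPM against 287 to 288. In RH4 vehicle at 8 h, HSPB1 stood at 199 CPM in replicate 2 against 241 to 245, and DNAJB1 at 62.8 CPM in replicate 4 against 83.5 to 87.5. TCP1 stood at 172 CPM in KB-0742 replicate 1 of PSN1 at 8 h against 160.2 to 162.

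The effect of a compound differed between 4 h and 8 h, by an interaction term in edgeR's quasi-likelihood test with Benjamini-Hochberg adjustment, for 14 members with KI-CDK9d-32 in MOLT4, where HSPA8 had the largest difference (-2.08 ± 0.17). It differed for 13 members with KB-0742 in MOLT4 (HSPB11, -1.74 ± 0.25) and for 12 with KB-0742 in RH4 (HSPA14, -1.89 ± 0.45).

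The 8 h effect of KI-CDK9d-32 differed between lines for 18 members in MOLT4 against PSN1 and 17 in MOLT4 against RH4. DNAJB9 had the largest fitted differences, -6.68 and -7.25, which rest on 0 counts in MOLT4 and are no bound. Between PSN1 and RH4 it differed for 1 member, CCT2 (0.69 ± 0.15). The 8 h effect of KB-0742 differed for 10 members in MOLT4 against PSN1 (HSPB11, -1.60 ± 0.24), for 12 in MOLT4 against RH4 (HSPA1B, -2.12 ± 0.60) and for 12 in PSN1 against RH4 (HSPA14, 1.92 ± 0.43).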

How the results depend on the processing

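Of 323 calls in the 22 comparisons of 2 groups, 230 were kept with every library left out in turn and 322 with the replicate block. The cause of the changes was not tested. Levels below a few CPM (BAG3, HSPA1A, DNAJB4, DNAJB9) are limited by depth. Replicate numbers were used as a block only as an alternative, because not every pair of same-numbered libraries deviated together: the correlation exceeded 0.1 for 0 of 136 pairs in MOLT4, 24 of 112 in PSN1 and 10 of 60 in RH4. Still, 29 of 35, 30 of 32 and 22 of 24 libraries correlated best with their own number, a hint from the data only. 

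Scaling by spike-in counts moved the count of called members by over 1.5 times to 2 for MOLT4 KI-CDK9d-32 against vehicle at 2 h (8 with TMM scaling and no block), 7 for MOLT4 KB-0742 against vehicle at 2 h (17), 1 for MOLT4 KI-CDK9d-32 against KB-0742 at 2 h (9), 5 for MOLT4 KI-CDK9d-32 against KB-0742 at 4 h (18), 31 for MOLT4 KI-CDK9d-32 effect 8 h minus 4 h (14), 0 for MOLT4 KB-0742 effect 8 h minus 4 h (13), 0 for PSN1 KI-CDK9d-32 against vehicle at 2 h (1), 29 for PSN1 KI-CDK9d-32 against vehicle at 8 h (9), 1 for PSN1 KI-CDK9d-32 against KB-0742 at 4 h (7), 3 for PSN1 KI-CDK9d-32 against KB-0742 at 8 h (11), 0 for RH4 KI-CDK9d-32 against vehicle at 4 h (1), 30 for RH4 KI-CDK9d-32 against vehicle at 8 h (12), 30 for RH4 KB-0742 against vehicle at 4 h (17), 4 for RH4 KB-0742 effect 8 h minus 4 h (12), 38 for KI-CDK9d-32 effects at 8 h, MOLT4 minus PSN1 (18), 38 for KI-CDK9d-32 effects at 8 h, MOLT4 minus RH4 (17), 0 for KI-CDK9d-32 effects at 8 h, PSN1 minus RH4 (1), 1 for KB-0742 effects at 8 h, MOLT4 minus PSN1 (10), 0 for KB-0742 effects at 8 h, MOLT4 minus RH4 (12) and 2 for KB-0742 effects at 8 h, PSN1 minus RH4 (12). No filter on low counts moved the count of called members by over 1.5 times to 0 for PSN1 KI-CDK9d-32 against vehicle at 2 h (1 with TMM scaling and no block), 8 for PSN1 KB-0742 against vehicle at 4 h (15), 1 for PSN1 KB-0742 effect 8 h minus 4 h (0), 0 for KI-CDK9d-32 effects at 8 h, PSN1 minus RH4 (1) and 6 for KB-0742 effects at 8 h, MOLT4 minus PSN1 (10). The replicate block moved the count of called members by over 1.5 times to 8 for PSN1 KI-CDK9d-32 against vehicle at 4 h (4 with TMM scaling and no block), 24 for PSN1 KB-0742 against vehicle at 4 h (15), 11 for PSN1 KI-CDK9d-32 against KB-0742 at 4 h (7), 1 for PSN1 KI-CDK9d-32 effect 8 h minus 4 h (0), 2 for PSN1 KB-0742 effect 8 h minus 4 h (0), 5 for RH4 KI-CDK9d-32 against vehicle at 4 h (1) and 2 for RH4 KI-CDK9d-32 effect 8 h minus 4 h (0). DESeq2 size factors moved the count of called members by over 1.5 times to 1 for PSN1 KB-0742 effect 8 h minus 4 h (0 with TMM scaling and no block). DESeq2's Wald test moved the count of called members by over 1.5 times to 2 for PSN1 KB-0742 effect 8 h minus 4 h (0 with TMM scaling and no block), 3 for RH4 KI-CDK9d-32 against vehicle at 4 h (1) and 2 for RH4 KI-CDK9d-32 effect 8 h minus 4 h (0). With 1 library or replicate number left out, the counts that moved by over 1.5 times ranged over 5 to 7 for MOLT4 KI-CDK9d-32 against vehicle at 2 h, 0 to 1 for PSN1 KI-CDK9d-32 against vehicle at 2 h, 2 to 4 for PSN1 KI-CDK9d-32 against vehicle at 4 h, 8 to 15 for PSN1 KB-0742 against vehicle at 4 h, 7 to 12 for PSN1 KI-CDK9d-32 against KB-0742 at 8 h, 0 to 1 for PSN1 KB-0742 effect 8 h minus 4 h, 0 to 1 for RH4 KI-CDK9d-32 against vehicle at 4 h, 7 to 9 for RH4 KI-CDK9d-32 against vehicle at 8 h, 0 to 1 for KI-CDK9d-32 effects at 8 h, PSN1 minus RH4 and 5 to 9 for KB-0742 effects at 8 h, MOLT4 minus PSN1.

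Changes whose sign turned with spike-in scaling are given with the spike-in log2 value, for every member called with TMM scaling and, where uncalled with it but called with spike-in scaling, for the members named by rule. For MOLT4 KI-CDK9d-32 against vehicle at 2 h, HSPE1 0.00. For MOLT4 KI-CDK9d-32 against vehicle at 4 h, HSPB1 -0.16, DNAJB6 -0.57, HSPE1 -0.68 and CCT7 -0.53. For MOLT4 KI-CDK9d-32 against vehicle at 8 h, HSF1 -2.55, HSP90AA1 -2.15, HSP90AB1 -2.29, HSPB1 -0.50, DNAJB6 -1.97, HSPE1 -2.41, CCT7 -2.56 and CCT8 -2.38. For MOLT4 KB-0742 against vehicle at 2 h, HSPA4 -0.48, HSP90AA1 -0.24, HSP90AB1 -0.42, HSPB11 -0.22, DNAJC2 -0.27, HSPD1 -0.40, HSPE1 -0.27, CCT5 -0.44, CCT7 -0.35, CCT8 -0.36 and TCP1 -0.41. For MOLT4 KB-0742 against vehicle at 4 h, HSF1 -1.25, HSF2 -0.40, HSP90AA1 -0.92, HSP90AB1 -0.83, HSPB1 -0.30, DNAJC2 -0.57, BAG5 -0.32, HSPA5 -1.09, DNAJB9 -1.39, HSPD1 -0.90, HSPE1 -0.83, CCT7 -0.67, CCT8 -0.82 and TCP1 -1.18. For MOLT4 KB-0742 against vehicle at 8 h, HSPA4 -0.23, HSP90AB1 -0.94, HSPB1 0.00, DNAJB6 -0.91, DNAJB9 -0.46, HSPA9 -0.76, HSPD1 -1.21, CCT8 -0.60 and TCP1 -1.08. For MOLT4 KI-CDK9d-32 against KB-0742 at 2 h, HSP90AA1 0.01, HSP90AB1 0.09, CCT7 0.10 and CCT8 0.12. For MOLT4 KI-CDK9d-32 against KB-0742 at 4 h, HSP90AB1 0.03 and CCT8 0.06. For MOLT4 KI-CDK9d-32 against KB-0742 at 8 h, HSP90AA1 -0.57, HSPB1 -0.49, DNAJB6 -1.06 and HSPE1 -0.89. For MOLT4 KI-CDK9d-32 effect 8 h minus 4 h, HSPB1 -0.33, DNAJB1 -1.08 and BAG5 -0.44. For PSN1 KI-CDK9d-32 against vehicle at 4 h, STIP1 -0.25 and DNAJB6 -0.08. For PSN1 KI-CDK9d-32 against vehicle at 8 h, HSF1 -0.88, HSP90AA1 -0.89, STIP1 -0.52, HSPB1 -0.15, DNAJB6 -0.34, HSPD1 -0.74, HSPE1 -0.74, CCT7 -0.58 and TCP1 -0.78. For PSN1 KB-0742 against vehicle at 4 h, HSPA4 -0.36, HSP90AB1 -0.51, AHSA1 -0.09, DNAJA1 -0.75, DNAJA2 -0.36, HSPA5 -0.53, HSP90B1 -0.32, HSPD1 -0.47, CCT3 -0.60, CCT7 -0.50 and CCT8 -0.48. For PSN1 KB-0742 against vehicle at 8 h, HSF1 -0.86, HSPH1 -0.95, STIP1 -0.58, AHSA1 -0.33, HSPB1 -0.23, HSPA5 -0.78, HSP90B1 -0.37, HSPD1 -0.51, CCT7 -0.57 and CCT8 -0.17. For RH4 KI-CDK9d-32 against vehicle at 8 h, HSPH1 -0.73, HSP90AA1 -0.64, HSP90AB1 -0.54, DNAJB6 -0.39, BAG5 -0.14, HSPA5 -0.70, HSP90B1 -0.46 and HSPD1 -0.81. For RH4 KB-0742 against vehicle at 4 h, HSF1 -0.94, HSPA4 -0.70, HSPH1 -0.80, HSP90AA1 -0.46, HSP90AB1 -0.47, HSPB1 -0.25, DNAJC2 -0.21, HSPA5 -0.51, HSP90B1 -0.51, HSPD1 -0.60, HSPE1 -0.74, CCT3 -0.75, CCT7 -0.59, CCT8 -0.67 and TCP1 -0.75. For RH4 KB-0742 against vehicle at 8 h, HSF1 -1.50, HSF2 -0.25, HSPA4 -0.84, HSPH1 -1.30, HSP90AA1 -0.98, HSP90AB1 -0.81, HSPB1 -0.76, DNAJA2 -1.16, DNAJC2 -0.51, BAG5 -0.14, HSPA5 -0.41, HSPA13 -0.55, HSP90B1 -0.71, DNAJB11 -0.85, HSPD1 -1.35, CCT8 -1.17 and TCP1 -1.47. For RH4 KI-CDK9d-32 against KB-0742 at 4 h, HSP90AA1 0.35, HSP90AB1 0.37, HSPB1 0.16, HSPA5 0.15, HSP90B1 0.28, HSPE1 0.36 and CCT7 0.41. For RH4 KI-CDK9d-32 against KB-0742 at 8 h, HSP90AA1 0.34, HSP90AB1 0.26, AHSA1 0.35, HSPB1 0.17, BAG5 0.00, HSP90B1 0.25, DNAJB11 0.28 and CCT8 0.43. For KI-CDK9d-32 effects at 8 h, MOLT4 minus PSN1, HSP90AA1 -1.26 and HSPB1 -0.35. For KI-CDK9d-32 effects at 8 h, MOLT4 minus RH4, HSPE1 -1.48. For KB-0742 effects at 8 h, PSN1 minus RH4, HSP90AA1 0.06 and HSP90AB1 0.16.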
